A study of Homo sapiens with 8 samples.

Results

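SAMD9, SAMD9L, SAMHD1, C19orf66, BST2, IFITM1, IFITM2, IFITM3, ZC3HAV1 and MOV10 encode proteins that limit the replication of viruses or retroelements inside the cell. They were taken from the expression table by gene name and are 10 of its 35805 genes. The names were put together with their differences between cells with guides against IRF2 and cells with a control guide already known, so values of the members against either control group, and between the control groups, are given as a description. Whether a member was called there (limma, adjusted p under 0.05) is part of that description, to be read beside the shares of all genes called that are given with the counts. The comparison of the guides with each other was not used to choose the names, and its tests are given. Of the 14665 genes that passed a filter on low values (a mean deposited log2 value of at least 0 over all 8 libraries), 9 belong to the set. SAMD9L lay below the filter with a mean of -0.12 and is described from its reads.

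RNA was measured in K562 cells, a line from a chronic myeloid leukaemia with erythroid features. All groups, the controls included, carried dCas9-KRAB, a Cas9 without cutting activity joined to a repressor domain, which lowers transcription where a guide RNA places it. There were 4 groups of 2 libraries. One was untransduced, one had received a guide to the safe-harbour site AAVS1 (sgAAVS1), and the other two had each received 1 of a pair of independent guides to IRF2, named sg1-IRF2 and sg2-IRF2. RNA of the transduced cells was taken on day 7 after transduction. The labels name no time for the untransduced cells. Whether replicates are separate cultures is not in the labels either, so p-values measure the spread between these libraries, which may be technical.

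IRF2 is a transcription factor of the interferon regulatory family. It binds GAAA repeats in the promoters of interferon-stimulated genes, where it can lower or hold up their basal transcription. Many restriction factors are interferon-stimulated genes and keep a basal level in cells that have not met interferon. SAMD9 and its neighbour and paralogue SAMD9L act on translation and restrict poxviruses, C19orf66 (also called SHFL or shiftless) blocks programmed ribosomal frameshifting, and SAMHD1 hydrolyses the deoxynucleotides that reverse transcription needs. BST2 (tetherin) holds budding virions at the cell surface, the IFITM proteins hinder the fusion of viral and cell membranes, ZC3HAV1 (ZAP) binds CpG-rich viral RNA, and MOV10 is an RNA helicase that limits LINE-1 elements and retroviruses.

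Promoters were searched for GAAANNGAAA, a core shared by many sites of the interferon regulatory family, on both strands, in RefSeq windows (GRCh38.p14) from 250 bases before to 50 bases after each start. Of the 9 members with a window, SAMD9, C19orf66, BST2, IFITM1 and IFITM3 held a match, and the windows of SAMD9L, SAMHD1, ZC3HAV1 and MOV10 did not hold these letters. The matches are printed because members with and without a difference between the groups both had one. Each sequence reads 5′ to 3′ on the gene's strand, and capitals mark the match.
SAMD9 (chr7:93118061-93118160, minus strand): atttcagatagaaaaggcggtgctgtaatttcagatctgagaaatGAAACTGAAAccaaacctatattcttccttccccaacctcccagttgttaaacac
C19orf66 (chr19:10086264-10086293, plus strand): cccctgaatcGAAAGCGAAAcaggggccgg
BST2 (chr19:17405700-17405805, minus strand): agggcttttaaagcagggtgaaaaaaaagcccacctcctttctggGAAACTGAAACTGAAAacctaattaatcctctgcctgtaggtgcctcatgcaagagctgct
IFITM1, distal match (chr11:313990-314019, plus strand): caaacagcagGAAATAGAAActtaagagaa
IFITM1, proximal match (chr11:314024-314053, plus strand): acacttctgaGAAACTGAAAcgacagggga
IFITM3, distal match (chr11:320893-320922, minus strand): caaatgccagGAAAAGGAAActgttgagaa
IFITM3, proximal match (chr11:320876-320905, minus strand): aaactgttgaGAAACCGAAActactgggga
In base positions from the RefSeq start the match began at -136 in SAMD9 and at -43 in C19orf66. The printed stretches of C19orf66, IFITM1 and IFITM3 overlap exons of these genes in GENCODE 29, and those of SAMD9 and BST2 do not. BST2 held overlapping matches from -130 and -124, IFITM1 matches from -40 and -6, and IFITM3 matches from -52 and -35. The SAMD9 match and both BST2 matches had the same 10 letters as the proximal match of IFITM1. Over all 35116 windows of this length in the table, 3.57% held a match, and 33.0% did so when 1 mismatch was allowed. Counted by gene, 3.87% of the 9622 tested genes with a window held a match. Among genes called lower with both guides than with sgAAVS1 the share was 27.1% (32 of 118). Among those called higher it was 3.77% (2 of 53). Whether the letters bear on the differences was not tested. A match is a string of letters and does not show that a factor was bound.

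IRF2 itself, which checks the labels, had 271 and 268 reads in the untransduced libraries and 196 and 291 in those with sgAAVS1. Only 4 and 8 reads were left with sg1-IRF2, against 22 and 21 with sg2-IRF2. Library sums ran from 5248359 to 6738348 reads. Between the 2 libraries of a group, chi-square per degree of freedom, where counting noise alone gives about 1, was 1.64 for sgAAVS1, 0.828 for the untransduced pair, 0.788 for sg1-IRF2 and 0.671 for sg2-IRF2. The sgAAVS1 libraries thus stood further apart than the others. The other pairs differed by less than counting noise alone gives, for a reason that was not tested. They were also averaged to 1 sample as an alternative. All 12 erythroid and K562 markers were tested and none was called against either control (limma, 0 and 2 at an unadjusted p under 0.05; 0 called with voom), and their summed level was 1325 to 1451 RPM (reads scaled to the library total) over the libraries. Of 6 markers of adherent epithelial and mesenchymal lines 5 were tested (213 to 240 RPM in sum). COL1A1 was called lower than sgAAVS1 (-0.32) and COL1A2 lower than untransduced cells (-0.86), and their part in the results was not tested. Of the lymphoid markers 2 of 6 passed the filter, with MS4A1 and CD2 at 0 reads, and of the monocyte markers 1 of 5, with MARCO at 0 reads. In these bulk libraries fewer cells that express a gene and less of its RNA per cell cannot be told apart.

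Levels between genes are compared per length, as reads per kilobase of exon scaled to the library total (RPKM). In untransduced cells IFITM1 was highest at 65.8 to 66.8 RPKM and IFITM2 followed at 63.0 to 65.1, then IFITM3 at 44.8 to 46.0 and BST2 at 39.4 to 43.3. ZC3HAV1 had 28.9 to 29.2 RPKM and MOV10 26.0 to 27.0. SAMHD1 lay at 4.12 to 4.16 and C19orf66 at 3.62 to 3.83, with SAMD9 at 1.59 to 2.31 and SAMD9L at 0.333 to 0.378. No neighbours in this order overlapped in the untransduced libraries, but each range rests on 2 libraries, and no test of the order was made. Exonic lengths came from GENCODE 29, where the span of SAMHD1 differs from the deposited one. Its value per length, and its place beside C19orf66, are therefore less certain. The membrane proteins of the set were thus its most abundant transcripts in untransduced K562 cells, and SAMD9 and SAMD9L its least abundant. IFITM1 and IFITM2 share 351 exonic bases on the same strand, 32.5% of the exonic bases of IFITM1 and 22.8% of those of IFITM2, so reads there are not assigned to either with certainty.

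**Figure D1:**
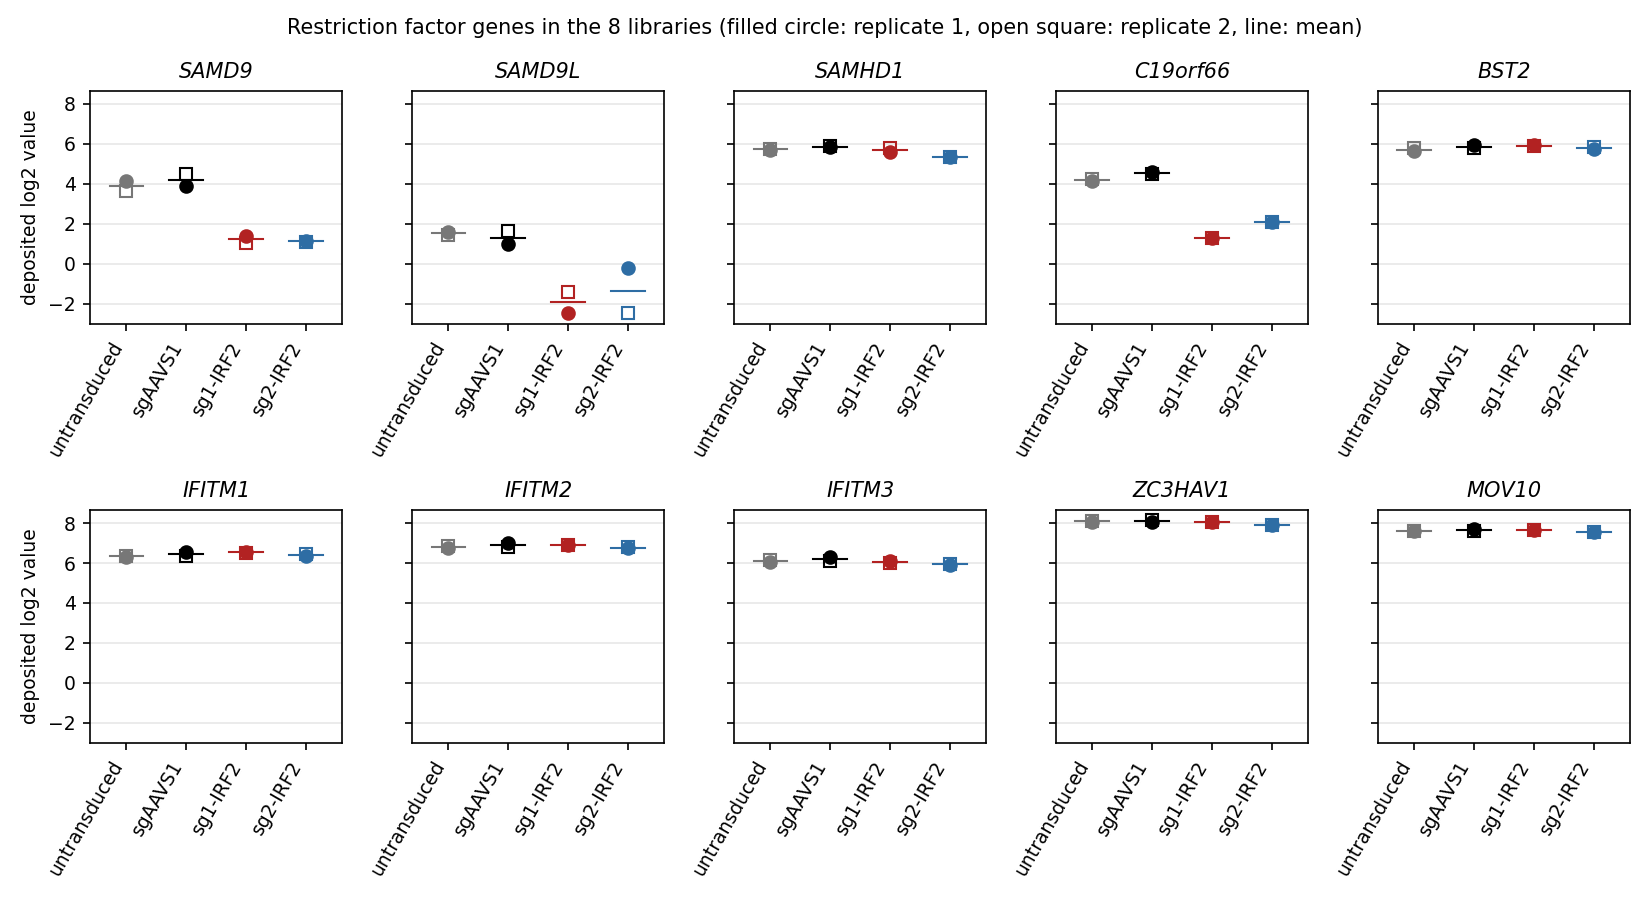
Deposited log2 value (vertical axis, log2 of reads divided by 1 factor per library) of each of the 10 genes in the 4 groups (horizontal axis), with replicate 1 as a filled circle, replicate 2 as an open square and the group mean as a line. SAMD9, SAMD9L and C19orf66 lie lower with both IRF2 guides than in both control groups, while the IFITM genes, BST2 and MOV10 stay near one level in all groups.

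Below, a level is the deposited log2 value of a library, and a difference is the log2 difference between group means with the standard error (SE) of the model. SAMD9 (chr7:93099513-93118023 in hg38, minus strand, protein coding) read 4.14 and 3.65 in untransduced cells (100 and 69 reads). In the sgAAVS1 libraries it read 3.89 and 4.50 (67 and 133 reads), in those with sg1-IRF2 1.40 and 1.04 (13 and 11 reads), and in those with sg2-IRF2 1.15 and 1.11 (13 and 12 reads). All 4 libraries with an IRF2 guide lay below all 4 control libraries. Group means (± SD, n = 2) were 3.90 ± 0.35 without a guide, 4.20 ± 0.43 for sgAAVS1, 1.22 ± 0.26 for sg1-IRF2 and 1.13 ± 0.025 for sg2-IRF2. Both IRF2 guides differed from sgAAVS1 by -3.02 ± 0.21 (SE; 95% interval -3.46 to -2.58), an 8.12-fold lower level, and from untransduced cells by -2.72 ± 0.21. SAMD9 was the gene at rank 10 from the lowest of the 14665 tested genes in the first comparison and at rank 12 in the second. Summed reads, scaled by library totals, were 8.24 times as many with sgAAVS1 as with sg1-IRF2 (95% exact interval for counting error 5.38 to 13.2) and 8.80 times as many as with sg2-IRF2 (5.79 to 13.9).

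SAMD9L (chr7:93130055-93148369, minus strand, protein coding), the paralogue beside SAMD9, had 17 and 15 reads in untransduced cells. It had 9 and 18 reads in the sgAAVS1 libraries, 0 and 2 in the sg1-IRF2 libraries and 5 and 1 in the sg2-IRF2 libraries. Every library with an IRF2 guide had fewer reads than every control library, as for SAMD9, but on few reads. Scaled by library totals, sgAAVS1 had 13.4 times the reads of sg1-IRF2 (27 against 2 reads, counting interval 3.35 to 116) and 4.95 times those of sg2-IRF2 (27 against 6 reads, 2.0 to 14.7). In a fit without the filter the difference of both guides was -2.95 ± 0.61 from sgAAVS1 and -3.16 ± 0.61 from untransduced cells, and neither was called. That fitted size depends on the value of 0.9 read at which the table lists a gene without reads.

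C19orf66 (chr19:10086122-10093252, plus strand, protein coding), the frameshifting inhibitor, read 4.13 and 4.25 in untransduced cells (99 and 105 reads), and 4.59 and 4.50 in the sgAAVS1 libraries (109 and 133 reads). Its levels were 1.29 and 1.28 for sg1-IRF2 (12 and 13 reads) and 2.09 and 2.11 for sg2-IRF2 (25 and 24 reads). The 3 levels do not overlap: controls highest, sg2-IRF2 between, sg1-IRF2 lowest. Both guides differed from sgAAVS1 by -2.86 ± 0.16 (95% interval -3.19 to -2.52), a 7.24-fold lower level, and from untransduced cells by -2.50 ± 0.16. In summed reads the ratio of sgAAVS1 to sg1-IRF2 was 9.57 (counting interval 6.33 to 15.1) and that of sgAAVS1 to sg2-IRF2 5.44 (3.98 to 7.55). Rank 11 and rank 14 from the lowest of all tested genes were those of C19orf66 in the comparisons with sgAAVS1 and with untransduced cells. ANGPTL6 on the opposite strand shares 442 exonic bases, 10.2% of those of C19orf66, and had 6 to 10 reads per library, below the lowest C19orf66 count of 12.

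SAMHD1 (chr20:36890229-36951843, minus strand, protein coding), the deoxynucleotide hydrolase, showed a much smaller difference. It read 5.70 and 5.73 in untransduced cells (295 and 293 reads) and 5.84 and 5.88 in the sgAAVS1 libraries (258 and 347 reads). Levels were 5.59 and 5.79 for sg1-IRF2 (236 and 296 reads) and 5.35 and 5.35 for sg2-IRF2 (240 and 226 reads). Libraries with sg2-IRF2 lay below all others, whereas those with sg1-IRF2 lay below sgAAVS1 but on both sides of the untransduced cells. Both guides differed from sgAAVS1 by -0.34 ± 0.07 (95% interval -0.48 to -0.20), a 1.27-fold lower level, and from untransduced cells by -0.20 ± 0.07, a difference that was not called. Against sgAAVS1 the call was lost when all 4 control libraries formed 1 group (-0.27), without the mean-variance trend, and when agreeing replicates were averaged. By guide, the difference from sgAAVS1 was -0.17 ± 0.08 with sg1-IRF2 and -0.51 ± 0.08 with sg2-IRF2. TLDC2, whose exons share 1159 bases with SAMHD1 on the opposite strand, had 0 reads in every library.

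BST2 (chr19:17402939-17405648, minus strand, protein coding), the tetherin gene with overlapping promoter matches, read 5.62 and 5.80 in untransduced cells (278 and 306 reads), and 5.92 and 5.78 in the sgAAVS1 libraries (274 and 324 reads). Levels were 5.92 and 5.89 for sg1-IRF2 (297 and 317 reads) and 5.73 and 5.82 for sg2-IRF2 (311 and 313 reads). The groups overlapped. Both guides differed from sgAAVS1 by -0.018 ± 0.068 (95% interval -0.16 to 0.12) and from untransduced cells by 0.13 ± 0.07. The first of these values was positive, at 0.0033 and 0.0069, with library medians aligned and in voom. The interval excludes differences of the size seen for SAMD9 and C19orf66. The BST2 and SAMD9 promoter windows hold the same 10 letters.

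IFITM1 (chr11:313506-315272, plus strand, protein coding) read 6.31 and 6.37 in untransduced cells and 6.57 and 6.37 in the sgAAVS1 libraries, from 428 to 491 reads per library in all groups. Its levels were 6.57 and 6.52 for sg1-IRF2 and 6.35 and 6.44 for sg2-IRF2. IFITM2 (chr11:307631-315272, plus strand, protein coding) read 6.76 and 6.85, 7.01 and 6.81, 6.93 and 6.89, and 6.74 and 6.81 in the same order, from 580 to 658 reads. For both genes every group overlapped with sgAAVS1, whose replicate 1 was among the highest of the 8 libraries. Differences of both guides from sgAAVS1 were -0.0027 ± 0.058 for IFITM1 (95% interval -0.12 to 0.12) and -0.066 ± 0.054 for IFITM2 (-0.18 to 0.05), and from untransduced cells 0.13 ± 0.06 and 0.036 ± 0.054. The IFITM1 value turned positive, at 0.015 to 0.024, with medians aligned, quantile normalization or voom.

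IFITM3 (chr11:319669-327537, minus strand, protein coding), the member of the family best known for blocking influenza virus, read 6.07 and 6.15 in untransduced cells (381 and 392 reads), and 6.31 and 6.09 in the sgAAVS1 libraries (358 and 400 reads). Levels were 6.10 and 6.02 for sg1-IRF2 (338 and 348 reads) and 5.92 and 5.97 for sg2-IRF2 (357 and 349 reads). The sg2-IRF2 libraries were the lowest of the 8, and those with sg1-IRF2 overlapped both controls. Both guides differed from sgAAVS1 by -0.19 ± 0.06 (95% interval -0.33 to -0.06), which was not called, and from untransduced cells by -0.11 ± 0.06. One sgAAVS1 library decided the size of the first value: it was -0.30 and called without sgAAVS1 replicate 2, and -0.082 and not called without sgAAVS1 replicate 1.

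ZC3HAV1 (chr7:139043520-139109719, minus strand, protein coding), the CpG-binding ZAP gene, was the best covered member, with 1207 to 1651 reads per library. It read 8.05 and 8.11 in untransduced cells and 8.06 and 8.13 in the sgAAVS1 libraries. Levels were 8.05 and 8.07 for sg1-IRF2 and 7.88 and 7.92 for sg2-IRF2. Only the sg2-IRF2 libraries lay apart, below the other 6. Both guides differed from sgAAVS1 by -0.12 ± 0.04 (95% interval -0.20 to -0.04) and from untransduced cells by -0.10 ± 0.04, and neither was called. Without sgAAVS1 replicate 1 the first was -0.15 and called.

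MOV10 (chr1:112673141-112700746, plus strand, protein coding), the RNA helicase, had 926 to 1142 reads per library and the narrowest spread of the set. It read 7.61 and 7.60 in untransduced cells and 7.68 and 7.60 in the sgAAVS1 libraries, then 7.66 and 7.64 for sg1-IRF2 and 7.55 and 7.56 for sg2-IRF2. The sg2-IRF2 libraries were again the lowest, by a small margin. Over all tested genes the median difference of sg2-IRF2 from sgAAVS1 was -0.074 on the deposited scale, and 0.0036 with library medians aligned. Beside that deposited median, the difference was -0.086 for MOV10, -0.20 for ZC3HAV1 and -0.25 for IFITM3. The differences were -0.039 ± 0.041 from sgAAVS1 (95% interval -0.12 to 0.05) and -0.0059 ± 0.041 from untransduced cells.

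Across the set, 3 of 9 tested members (SAMD9, C19orf66 and SAMHD1) were called lower with both guides than with sgAAVS1 and 0 higher, beside 1.1% of all tested genes called lower, 0.491% called higher and 1.59% called in either direction. The median difference of the 9 was -0.12, and that of all tested genes -0.018. Against untransduced cells, a comparison that uses the same libraries with IRF2 guides, SAMD9 and C19orf66 were called lower and 0 members higher, beside 1.51% of all genes lower and 0.982% higher, 2.5% in all. With sg1-IRF2 alone 2 members were called lower than sgAAVS1 (all genes: 0.498% lower and 0.327% higher, 0.825% in all). With sg2-IRF2 alone 5 were called lower (all genes: 7.11% lower and 1.05% higher, 8.16% in all), IFITM3 and ZC3HAV1 being added to the 3 above. No member was called higher with either guide. These comparisons share the sgAAVS1 libraries, and since the members were chosen on them the counts are a description. The 5 became 3 with medians aligned, with quantile normalization and with voom, and 3 without either sg2-IRF2 library. All 4 libraries with an IRF2 guide lay below both sgAAVS1 libraries for SAMD9, SAMD9L, C19orf66 and SAMHD1. The share of all genes separated in this way was not counted, so this only describes the members.

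**Figure D2:**
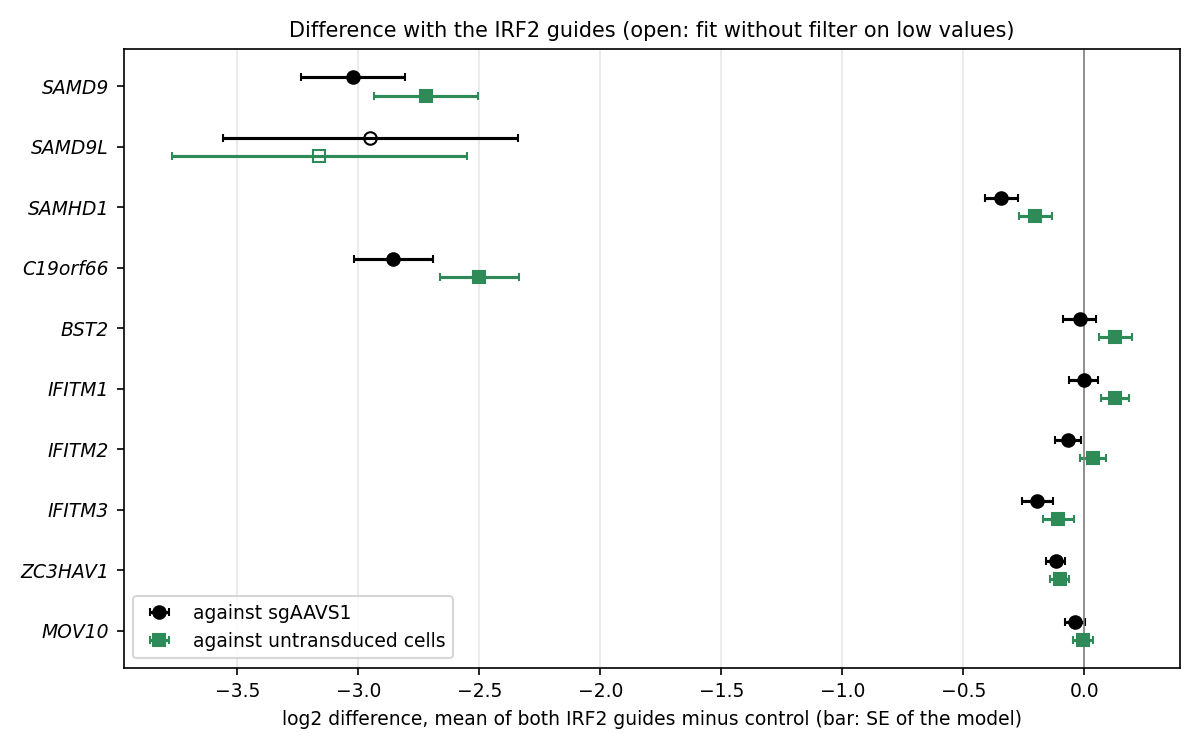
Log2 difference of the mean of both IRF2 guides (horizontal axis) from sgAAVS1 (black circles) and from untransduced cells (green squares) for the 10 genes, with bars for the SE; SAMD9L is drawn open because it comes from the fit without a filter on low values. SAMD9, SAMD9L and C19orf66 lie between -3.2 and -2.5, SAMHD1 at -0.34 and -0.20, and the other genes between -0.19 and 0.13.

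The guides can be set against each other without the control libraries, and this comparison did not choose the members. Over all tested genes the median difference of sg1-IRF2 from sg2-IRF2 was 0.11 on the deposited scale, against 0.00016 with medians aligned, 0.0014 after quantile normalization and 0.0082 in voom. Differences between guides are therefore also given relative to that median. In all, 13.3% of tested genes were called, 12.7% higher and 0.634% lower with sg1-IRF2. Of the 9 tested members 1 was called lower and 2 higher, and with that background the 2 higher calls say little about the set. IRF2 RNA differed between sg1-IRF2 and sg2-IRF2 by -1.77 ± 0.21 (limma, adjusted p = 9.7e-06).

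C19orf66 was lower with sg1-IRF2, the guide with less IRF2 RNA, by -0.82 ± 0.19 (95% interval -1.20 to -0.43; limma, adjusted p = 0.0073), or -0.93 relative to the median. Both sg1-IRF2 libraries lay below both sg2-IRF2 libraries, and summed reads were 1.76 times as many with sg2-IRF2 (counting interval 1.07 to 2.98). The call was lost in voom on whole reads (-0.89, limma-voom adjusted p = 0.14), without the mean-variance trend, when agreeing replicates were averaged, and on leaving out replicate 2 of either guide. SAMD9 showed no clear order. Its difference was 0.093 ± 0.25 (95% interval -0.42 to 0.60, limma adjusted p = 0.82), or -0.020 relative to the median, and the sign depended on the scaling. Summed SAMD9 reads with sg2-IRF2 were 0.936 times those with sg1-IRF2 (counting interval 0.513 to 1.71), which overlaps the interval of C19orf66. No test compared the 2 genes. The SAMD9 interval is wide enough to hold a difference of 0.42 in either direction on the deposited scale. SAMD9L, with 2 and 6 reads, gave a ratio of sg2-IRF2 to sg1-IRF2 of 2.70 (counting interval 0.482 to 27.3), which shows no order at this depth.

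SAMHD1 had the opposite order to C19orf66 and was higher with sg1-IRF2 by 0.34 ± 0.08 (95% interval 0.17 to 0.50; limma, adjusted p = 0.0084), or 0.23 relative to the median. It was not called with medians aligned (0.23, adjusted p = 0.13), after quantile normalization (0.22, adjusted p = 0.12) or in voom (0.24, limma adjusted p = 0.14), nor without replicate 2 of sg1-IRF2 or either replicate of sg2-IRF2. ZC3HAV1 was higher with sg1-IRF2 by 0.16 ± 0.05 (limma, adjusted p = 0.025), but only by 0.046 relative to the median, and its call was lost with medians aligned, with quantile normalization and in voom. BST2 (0.13), IFITM1 (0.15), IFITM2 (0.13), IFITM3 (0.11) and MOV10 (0.095) all lay close to the median of all genes, between -0.018 and 0.038 once it was subtracted, and were not called. Of the 9, then, C19orf66 and SAMHD1 kept a distance from that median of more than 0.2, in opposite directions.

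**Figure D3:**
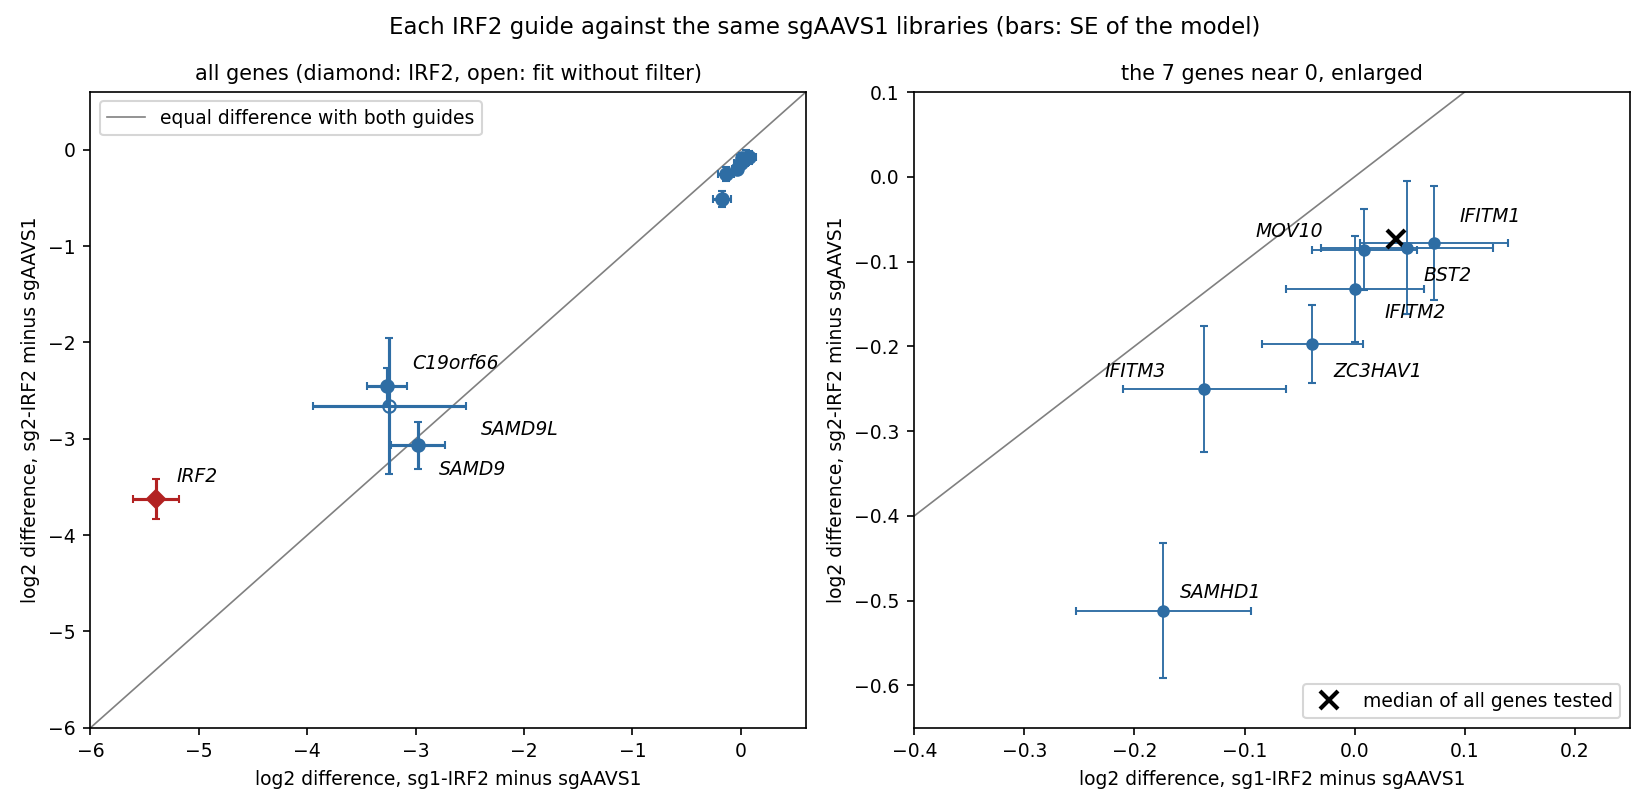
Log2 difference from sgAAVS1 with sg1-IRF2 (horizontal axis) and with sg2-IRF2 (vertical axis), with bars for the SE; the left panel holds the 10 genes and IRF2 (red diamond, SAMD9L open), the right panel enlarges the 7 genes near 0 and marks the median of all tested genes with a cross. Both axes use the same sgAAVS1 libraries. C19orf66 and IRF2 lie above the line of equal differences, SAMD9 near it, and SAMHD1 furthest below the cross, at -0.51 with sg2-IRF2.

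The control guide itself was set against untransduced cells. These values share the sgAAVS1 libraries with the comparisons above. None of the 9 tested members was called (0 at an unadjusted p under 0.05 and 0 with voom), beside 4.75% of all genes called, 1.79% lower and 2.97% higher. SAMD9 differed by 0.30 ± 0.25, C19orf66 by 0.36 ± 0.19 and SAMHD1 by 0.14 ± 0.08. Without sgAAVS1 replicate 2, SAMD9 had -0.0030, and IFITM1 and IFITM2 were called higher.

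Other genes of the same pathways came from lists put together with earlier results of these data known. Called genes of a list are named, here and in the paragraphs on the further lists, by lowest p in the comparison with sgAAVS1. Their adjusted p-values are therefore a description and no independent test. Of 49 other restriction factors 30 were tested. With both guides 10 were called lower than sgAAVS1 and 0 higher, beside 1.1% of all tested genes called lower and 0.491% higher. Against untransduced cells, with the same libraries of the guides, 12 were lower and 0 higher, beside 1.51% and 0.982% of all genes. The same counts were found with medians aligned, quantile normalization and voom. The median difference of the 30 was -0.25 from sgAAVS1 and -0.17 from untransduced cells, beside -0.018 and 0.013 for all tested genes. OAS3, which makes the 2-5A messenger that activates RNase L, was lower by -3.23 ± 0.25 (limma, adjusted p = 2.7e-10). PARP12, an ADP-ribosyltransferase, was lower by -1.38 ± 0.07 (adjusted p = 5.1e-14) and EIF2AK2, the kinase PKR that stops translation on double-stranded RNA, by -0.98 ± 0.05 (adjusted p = 3.0e-13). TRIM34, a capsid-binding tripartite motif protein, differed by -1.82 ± 0.21 (adjusted p = 9.5e-07), the helicase-like HELZ2 by -0.52 ± 0.05 (adjusted p = 2.5e-08) and the ubiquitin ligase TRIM56 by -0.37 ± 0.05 (adjusted p = 1.5e-05). In size, SAMD9 and C19orf66 stood beside OAS3, and SAMHD1 beside TRIM56.

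Partners and cofactors of the members were taken from 6 further lists, to be read beside the 1.59% of all tested genes called against sgAAVS1. Among 20 tested ZAP cofactors and RNA decay factors 1 was called lower and 1 higher than sgAAVS1. TRIM25, the ubiquitin ligase that ZAP needs for its antiviral effect, differed by -0.17 ± 0.04 (limma, adjusted p = 0.033), and XRN1, the exonuclease that degrades uncapped RNA, by 0.16 ± 0.04 (adjusted p = 0.026). Neither was called against untransduced cells, and with medians aligned TRIM25 was no longer called. For MOV10 partners and LINE-1 restriction 0 of 20 were called by limma (2 at an unadjusted p under 0.05, 0 with voom). For deoxynucleotide supply and control of SAMHD1 the count was 0 of 21 (2 at an unadjusted p under 0.05, 0 with voom). Frameshifting and termination factors gave 0 of 7 (1 and 0), genes for tRNA cleavage and stalled ribosomes 0 of 8 (1 and 0), and IFITM cofactors 0 of 7 (2 and 0), with the same pair of counts in parentheses.

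Of 15 tested genes for interferon signalling and interferon regulatory factors, 1 was called lower and 1 higher than sgAAVS1. Over all tested genes 1.1% were called lower and 0.491% higher. The lower one was IRF2, and SOCS1, which restrains JAK-STAT signalling, was higher by 0.43 ± 0.09 (limma, adjusted p = 0.0074). Against untransduced cells 2 of the 15 were called lower, IRF2 among them, and 1 higher, beside 1.51% and 0.982% of all tested genes. SOCS1 differed from untransduced cells by 0.19 ± 0.09 and was not called. IRF1, the activator that binds similar promoters, differed by -0.094 ± 0.086 (adjusted p = 0.79). STAT2, a signal transducer of type I interferon, differed by 0.097 ± 0.044 (adjusted p = 0.43).

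Genes beside the members on the chromosome were examined next. The 3 nearest tested genes on each side gave 45 distinct genes that are not members. With both guides against sgAAVS1, 0 of the 45 were called by limma (7 at an unadjusted p under 0.05, 6 of them lower, and 0 called with voom), beside 1.59% of all tested genes, and their median difference was -0.031. Without sgAAVS1 replicate 1 the count was 5, and without sgAAVS1 replicate 2 it was 1. Against untransduced cells 3 of the 45 were called, all higher, beside 2.5% of all genes, and 1 with voom. They were SOGA1 beside SAMHD1 (0.18, limma adjusted p = 0.025), and PPAN (0.23, adjusted p = 0.046) and the read-through gene PPAN-P2RY11 (0.23, adjusted p = 0.048) beside C19orf66, whose values against sgAAVS1 were negative at -0.073, -0.20 and -0.18. Next to SAMD9 and SAMD9L, CDK6 differed by -0.10 ± 0.03, HEPACAM2 by -0.18 ± 0.07 and CCDC132 by -0.033 ± 0.055, and these genes were called against neither control. IFITM1, IFITM2 and IFITM3 are themselves neighbours, and all 3 lay within 0.2 of 0. CDK6, HEPACAM2 and CCDC132 were chosen after their values were seen.

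**Figure D4:**
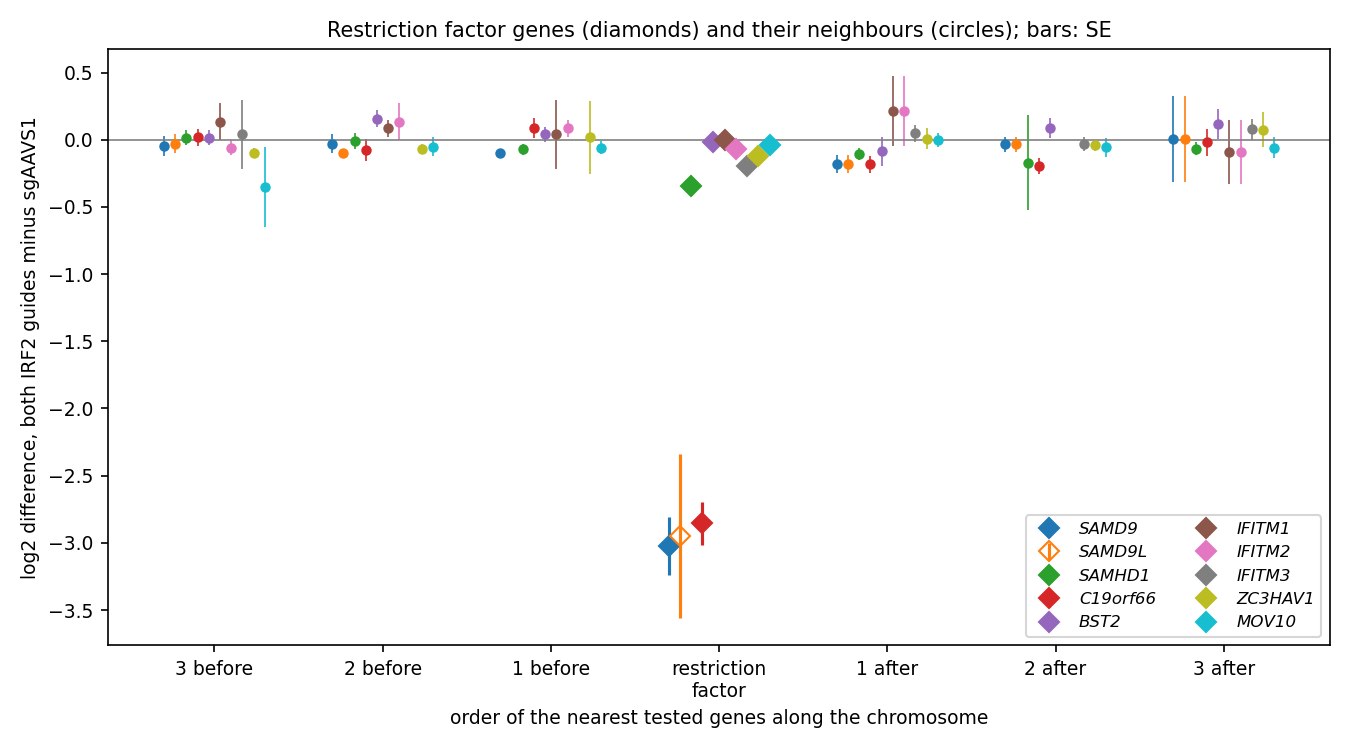
Log2 difference of both IRF2 guides from sgAAVS1 (vertical axis) for the 10 genes (diamonds, SAMD9L open) and for the 3 nearest tested genes before and after each of them (circles of the same colour; horizontal axis, order along the chromosome), with bars for the SE. SAMD9 and SAMD9L share their neighbours, which are drawn for both. The diamonds of SAMD9, SAMD9L and C19orf66 lie near -3, far below every circle.

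Genes with the pattern most like that of a member were sought by Pearson r over the 8 libraries among 12499 genes whose mean log2 value reached 2. The points share their libraries and scaling, and r is given as a description. For SAMD9 they were ERAP1 (r = 0.986), FAM111A (0.982) and APOL1 (0.982), and IRF2 had 0.936. For C19orf66 they were DTX3L (0.996), TRIM34 (0.994) and PARP12 (0.993), and IRF2 had 0.988. Between sg1-IRF2 and sg2-IRF2 the differences were -0.71 for DTX3L, -0.61 for TRIM34 and -0.20 for PARP12. They were -0.080 for ERAP1, -0.23 for FAM111A and 0.20 for APOL1, so the 2 sets of similar genes overlapped in this value. SAMHD1 was most like ZNF718 (0.981), ZC3H7B (0.976) and ZNF45 (0.973), with 0.531 for IRF2. Between the guides ZNF718 and ZNF45 each differed by 0.38 and ZC3H7B by 0.14, beside 0.34 for SAMHD1 and a median of 0.11 over all tested genes.

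The most similar genes of the other members were TBCD, HIST1H3F and CCNB1 for BST2 (r from 0.988 to 0.996), BAG6, SLC25A6 and SDHD for IFITM1 (0.983 to 0.987) and SSRP1, HBE1 and CBX3 for IFITM2 (0.996 to 0.997). For IFITM3 they were GNL3, CMSS1 and LY6E (0.939 to 0.957), for ZC3HAV1 PIK3R3, ZNF383 and CCDC127 (0.982 to 0.994), and for MOV10 NHP2L1, PDCD6 and U2SURP (0.972 to 0.979). Between the guides ZNF383 differed by 0.38, PIK3R3 by 0.23 and CCDC127 by 0.17, beside a median of 0.11 over all tested genes. IRF2 had an r of -0.42 with BST2, -0.48 with IFITM1, -0.087 with IFITM2, 0.527 with IFITM3, 0.466 with ZC3HAV1 and 0.016 with MOV10.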

How the data were processed

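Total RNA of K562 cells was depleted of ribosomal RNA and made into directional libraries, per the labels' protocols. Tools named are Bowtie2 and cutadapt, with the build hg38, per the submitters' processing notes. The counting tool, strand setting, annotation and versions are not given in the sources used. The table deposited by the authors holds log2 values, 1 column per library. On the linear scale they are whole multiples of the value of 1 read (100% within 0.01 read), with genes without reads at 0.9 read, so reads were recovered for depth and counting intervals (95%, exact, for counting error alone, as PCR copies cannot be told from separate molecules). Exons came from GENCODE 29 and promoter sequences from RefSeq.

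Group means of the deposited log2 values were fitted to all 8 libraries (limma 3.58.1, R 4.3.3, lmFit, contrasts.fit, eBayes with a mean-variance trend; 4 residual and 22.4 prior degrees of freedom). Tests were two-sided, with Benjamini-Hochberg adjustment over all 14665 tested genes, and genes were called at an adjusted p under 0.05. Members and lists were chosen with earlier results of these data known. Named were all members, up to 6 called genes per list by lowest p, IRF1, IRF2 and STAT2 (some genes this rule names are not reported here), and the 3 genes most like each tested member. Alternatives were other scalings, filters, weights, controls, voom and leaving out each library.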

Additional observations from a re-analysis of the deposited data

Results flagged for a closer look

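Members with a called difference in level between the libraries of the 2 IRF2 guides are listed here (limma, sg1-IRF2 against sg2-IRF2). With 2 libraries per guide, which may be technical replicates, an effect of the guide cannot be told apart from a difference between cultures or libraries. C19orf66 differed by -0.82 (adjusted p = 0.0073), SAMHD1 by 0.34 (adjusted p = 0.0084) and ZC3HAV1 by 0.16 (adjusted p = 0.025), beside a median of 0.11 over all tested genes, which leaves 0.046 for ZC3HAV1. None of the 3 was called in voom, without the mean-variance trend or with agreeing replicates averaged, and with library medians aligned only C19orf66 was. IRF2 RNA differed between the same libraries by -1.77. Whether the levels of C19orf66 and SAMHD1 depend on the amount of IRF2 left was not tested.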

How the results depend on the processing

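The calls of SAMD9 and C19orf66 against both controls held in every alternative run, from -3.32 to -2.72 for SAMD9 and -2.90 to -2.68 for C19orf66 against sgAAVS1. Members called with sg2-IRF2 (5) became 3 with library medians aligned, quantile normalization, voom or averaged replicates and 2 with no mean-variance trend, and ranged from 3 to 6 when libraries were left out. Members called between the guides (3) became 5 with array weights, 6 with only the groups compared, 1 with medians aligned or quantile normalization, and 0 with no trend, averaged replicates or voom (0 to 5 leaving libraries out). Members called between sgAAVS1 and untransduced cells ranged from 0 to 2 on leaving libraries out. Genes called in all (233) became 117 with all controls as 1 group, 137 with array weights, 124 with no filter, 60 with no trend and 106 with averaged replicates, and ranged from 141 to 428 on leaving libraries out, highest without sgAAVS1 replicate 1 (418) or 2 (428). Genes called over the pathway lists (14) became 9 with no filter and 8 with no trend. Neighbours called (0) ranged from 0 to 5. Averaging the agreeing replicates was chosen after seeing the data. The SAMHD1 difference from sgAAVS1 was -0.27 with all controls as 1 group and stayed at -0.34 with no trend or averaged replicates, and it was not called under these 3. The causes were not tested, beyond fewer libraries or genes where these were removed.

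Among the differences followed gene by gene, signs turned in none of the called ones and in these others. Signs were not followed for BST2, IFITM1, IFITM2 and MOV10 with each guide alone against sgAAVS1. Between the controls they were followed only for SAMD9, SAMD9L, SAMHD1 and C19orf66. Between the guides SAMD9 had -0.020 (medians aligned), -0.0091 (quantile), -0.018 (voom) and -0.091 to 0.28 without single libraries, IFITM3 had -0.0015 (quantile) and MOV10 -0.017 (medians), -0.0075 (quantile) and -0.011 (voom). Against sgAAVS1, BST2 had 0.055 (all controls as 1 group), 0.0033 (medians), 0.0069 (voom), and -0.088 to 0.052 without single libraries. IFITM1 had 0.062 (all controls), 0.019 (medians), 0.015 (quantile), 0.024 (voom), and -0.10 to 0.095 without single libraries. On leaving single libraries out, IFITM2 had -0.17 to 0.034 and MOV10 -0.079 to 0.0014. Against untransduced cells the same gave -0.0095 to 0.081 for IFITM2 and -0.013 to 0.00090 for MOV10. SAMD9 between the controls had -0.0030 to 0.60.

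Deviations of libraries with the same number correlated at -0.079 to 0.22 between groups, highest between sgAAVS1 and sg1-IRF2. Except for sgAAVS1, replicates differed by less than counting noise, so these values cannot show whether the numbers pair the samples. With a replicate block, genes called in all were 201, against 233, members called stayed at 3 against sgAAVS1, and SAMHD1 had -0.34. Depth limits SAMD9L, with 67 reads in all 8 libraries.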
